A study of Arabidopsis thaliana with 108 samples.

Results

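This report is about places in the Arabidopsis thaliana genome where a peak of FLAG-tagged TRB2 or TRB3 was called without any peak of TRB1 or JMJ14. The 1878 regions were chosen by the FLAG peak lists alone. A consensus region of TRB2 or TRB3 was a stretch under peaks in at least 2 of that protein's 4 lists, joined over gaps of up to 100 bp and at least 100 bp long on chromosomes 1 to 5. The 16091 TRB2 and 11356 TRB3 consensus regions merged into a union of 16531, and the 1878 (11.4%) that touched no peak in any of the 4 FLAG-TRB1 or 2 FLAG-JMJ14 lists are called TRB2/3-only regions here. Of the other union regions, 11844 touched TRB1 and no JMJ14 peak, and 2809 touched JMJ14. A further 2272 TRB1 consensus regions touched no TRB2, TRB3 or JMJ14 peak and are called TRB1-only regions.

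The FLAG lists came from flowers of plants in which pTRB1:TRB1-FLAG, pTRB2:TRB2-FLAG or pTRB3:TRB3-FLAG, each driven by the gene's own promoter, stood in the mutant of that gene, and from plants with pJMJ14:JMJ14-FLAG. The histone lists of seedlings came from the triple T-DNA mutant trb1/2/3 (2 lists each of H3K4me3 and H3K27me3), from jmj14-1 (1 list of H3K4me3) and from the wild type Col-0 (2 lists each). The histone lists of adult plants came from TRB1-ZF, TRB2-ZF and TRB3-ZF, in which a TRB-FLAG fused to the zinc finger ZF108, built to bind the FWA promoter, was carried in the fwa epiallele, and from fwa without a fusion. Those adult plants shared the fwa background, and the labels call their tissue floral while the methods describe leaves. A last set held 5 lists of Myc-JMJ14 from leaves, 1 without a fusion and 4 in TRB-ZF plants. By the labels, the seedlings were at least 2 weeks old and the Myc-JMJ14 plants at least 3 weeks. The plants of the FLAG lists and of the adult histone lists were at least 5 weeks old. The methods give leaves of 4 to 5 weeks for the histone lists of TRB-ZF plants. Occupancy and seedling histone marks were thus measured in different tissues and at different ages. A region under both a TRB and a mark need not carry both in the same cells.

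TRB1, TRB2 and TRB3 belong to a small plant family of MYB-type proteins with a linker histone domain. They bind the short telomere repeat both at chromosome ends and inside the genome, where it is called a telobox. They are known to interact with Polycomb repressive complex 2 (PRC2), which writes the repressive mark H3K27me3, and with JMJ14, a demethylase that removes the active mark H3K4me3. H3K27me3 in plants covers mostly developmental genes that are silent in a given tissue, while H3K4me3 lies at the start of transcribed genes.

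The deposited lists hold peak positions with a fold and a q-value for each peak and no read depth, so the depth behind a list is unknown. The FLAG lists held between 3279 and 22509 peaks, and the H3K4me3 and H3K27me3 lists used held between 10198 and 17764. The H3K27me3 lists of TRB1-ZF replicate 2 and TRB2-ZF replicate 2 are identical in all 11610 peaks and were counted as 1 list, which leaves 11 H3K27me3 and 15 H3K4me3 lists. Nothing in the labels says whether replicates came from separately grown plants, so the spread between lists may be technical.

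A missing TRB1 call here is a missing peak, and binding below the caller's threshold cannot be seen in the lists. The 4 FLAG-TRB1 lists held 11117, 10302, 22365 and 21492 peaks, the 4 FLAG-TRB2 lists 6202, 8955, 16203 and 22509, and the 4 FLAG-TRB3 lists 3279, 9547, 9099 and 20475. The TRB2/3-only regions rested mainly on the longest lists. TRB2 replicates 1 to 4 held 288, 934, 1586 and 1800 of them, and TRB3 replicates 1 to 4 held 192, 565, 887 and 1774. Within the list that held it, a TRB2/3-only region had a median fold percentile between 38.5 and 60.2, against 52 to 66.2 for the other union regions. These values come from the lists that chose the regions and are given as a description. Of the 1878 regions, 937 lay in consensus regions of both TRB2 and TRB3, 785 in TRB2 alone and 156 in TRB3 alone. The widest measured 2587 bp and the median was 284 bp, against a median of 370 bp over the whole union.

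The best supported regions are shown first, and they are not typical of the whole group. All 10 leading regions, the ones held by all 8 TRB2 and TRB3 lists with the highest mean fold percentile, contained at least 1 TTAGGG, the unit of the telomere repeat, on either strand. All 10 also lay under H3K27me3 in every one of the 11 lists of that mark, and none lay under H3K4me3 in both Col-0 lists. Over all 1878 regions, 43.0% contained TTAGGG and 864 lay under H3K27me3 in all 11 lists. The 10 were 419 to 1911 bp wide, against the median of 284 bp over all. The following 30-base stretches surround the TTAGGG nearest to the centre of each region, with the TTAGGG in capitals, read 5′ to 3′ on the strand that carries it, from the TAIR10 genome.
AT4G13575 (5' UTR, chr4:7893760-7893789, minus strand): agaaaaagataaTTAGGGtttacgattcct
AT3G01315 (distal, chr3:896619-896648, plus strand): gtggttatgcttTTAGGGcacaagtgtgag
AT5G40790 (exon, chr5:16330819-16330848, minus strand): aacgaaagtatgTTAGGGttcgggacaaga
PLT2 (promoter, chr1:18976791-18976820, plus strand): agagagagggaaTTAGGGtttggacttttt
AT4G12050 (promoter, chr4:7221524-7221553, plus strand): gtgattggtaaaTTAGGGttaagatctaga
AT2G04615 (distal, chr2:1235722-1235751, plus strand): ttttcagtccttTTAGGGcaaagtaactgt
STY2 (5' UTR, chr4:17157055-17157084, minus strand): atttcatggtaaTTAGGGtttctgaattat
MIF2 (promoter, chr3:10923911-10923940, plus strand): tttctcatcattTTAGGGttttctcgcaaa
GOS12 (distal, chr2:18635767-18635796, plus strand): catatttccttgTTAGGGcacagcaacatg
TT16 (intron, chr5:7836343-7836372, plus strand): ttggttagttaaTTAGGGtttcttttaagt
In 5 of these 10 stretches, those at AT4G13575, PLT2, STY2, MIF2 and TT16, the 6 bases ran into the longer telobox AAACCCTA, which reads TAGGGTTT on the other strand. The class in brackets is that of the region's centre, and the gene is the one whose body or first 1000 bp upstream the region touched or, for AT3G01315 and GOS12, the gene with the nearest transcription start site (TSS), whose centres lay at -4052 bp and 4311 bp from it, with negative values upstream.

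The wider sequence around 3 of these centres is shown to place the unit in its surroundings, in 200-bp windows on the plus strand outside annotated UTRs.
PLT2 (chr1:18976659-18976858): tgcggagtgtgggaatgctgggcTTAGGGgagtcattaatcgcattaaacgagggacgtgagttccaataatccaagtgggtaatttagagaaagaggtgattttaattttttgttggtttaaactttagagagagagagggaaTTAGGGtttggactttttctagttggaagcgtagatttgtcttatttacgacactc
AT3G01315 (chr3:896554-896753): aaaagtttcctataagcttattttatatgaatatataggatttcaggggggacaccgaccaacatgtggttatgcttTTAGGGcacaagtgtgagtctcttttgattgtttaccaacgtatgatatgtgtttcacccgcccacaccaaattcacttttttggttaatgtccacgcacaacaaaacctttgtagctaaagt
GOS12 (chr2:18635628-18635827): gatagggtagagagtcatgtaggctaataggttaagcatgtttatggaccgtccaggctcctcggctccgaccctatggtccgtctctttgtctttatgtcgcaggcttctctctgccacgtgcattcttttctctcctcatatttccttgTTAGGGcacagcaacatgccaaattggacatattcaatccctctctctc
The window at PLT2, which encodes an AP2-type transcription factor of the root stem cell niche, held 2 copies, 1 of them next to a run of GA repeats. The windows beside AT3G01315 and GOS12 held 1 copy each. The GOS12 window has a CACGTG, the G-box, upstream of its copy. The GC content of the GOS12 window was 48%, against a mean of 36.3% over the windows of all TRB2/3-only regions.

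Several of the leading regions lay at developmental regulators. The region of STY2, a regulator of gynoecium development, was 1559 bp wide and was covered over all 1559 bp by H3K27me3 peaks in both trb1/2/3 lists and in both Col-0 lists. The region of TT16, a MADS-box gene of the seed coat, was 1139 bp wide and likewise covered in full in all 4. The region of PLT2 was covered over its whole 592 bp in all 4. The region at MIF2, a mini zinc finger gene, was covered over 1795 and 1413 bp in the trb1/2/3 lists against 1911 bp in both Col-0 lists, so both mutant lists were lower. H3K4me3 touched 3 of the 10 in at least 1 list. It covered 343 and 293 bp of the AT4G13575 region in trb1/2/3, 241 bp in jmj14-1 and 151 and 0 bp in Col-0. Both mutant lists stood above both Col-0 lists there.

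Most TRB2/3-only regions lay under H3K27me3 and few under H3K4me3. H3K27me3 peaks of Col-0 seedlings touched 70.1% and 71.6% of them (70.8% ± 1.02, SD, n = 2), while peaks of that mark covered 13.3% and 14.5% of the chromosomes. H3K4me3 peaks of Col-0 touched 9.96% and 5.75% (7.85% ± 2.97, SD, n = 2). That mean was 4.58% when the region's centre had to lie under the peak. It was 13.9% in a set of regions built anew from FLAG peaks of −log10 q of at least 10. That threshold also dropped weaker TRB1 and JMJ14 peaks, so the new set can hold regions that the main rule excludes. Regions that touched TRB1 and no JMJ14 showed the other order, with 11.8% ± 0.824 under H3K27me3 and 54.1% ± 4.56 under H3K4me3. TRB1-only regions lay almost wholly outside H3K27me3, at 0.638% ± 0.218, and had 75.3% ± 4.36 under H3K4me3. Regions that touched JMJ14 stood in between, at 34.9% ± 2.16 and 25.7% ± 4.91. The gap of 54.7 percentage points in H3K27me3 between TRB2/3-only and all other union regions was 54.6 and 54.7 in the single Col-0 lists, and the gap in H3K4me3 was -42.0 and -39.7. No p-value is given over regions, since neighbouring regions can share a peak and regions are not replicates.

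**Figure D1:**
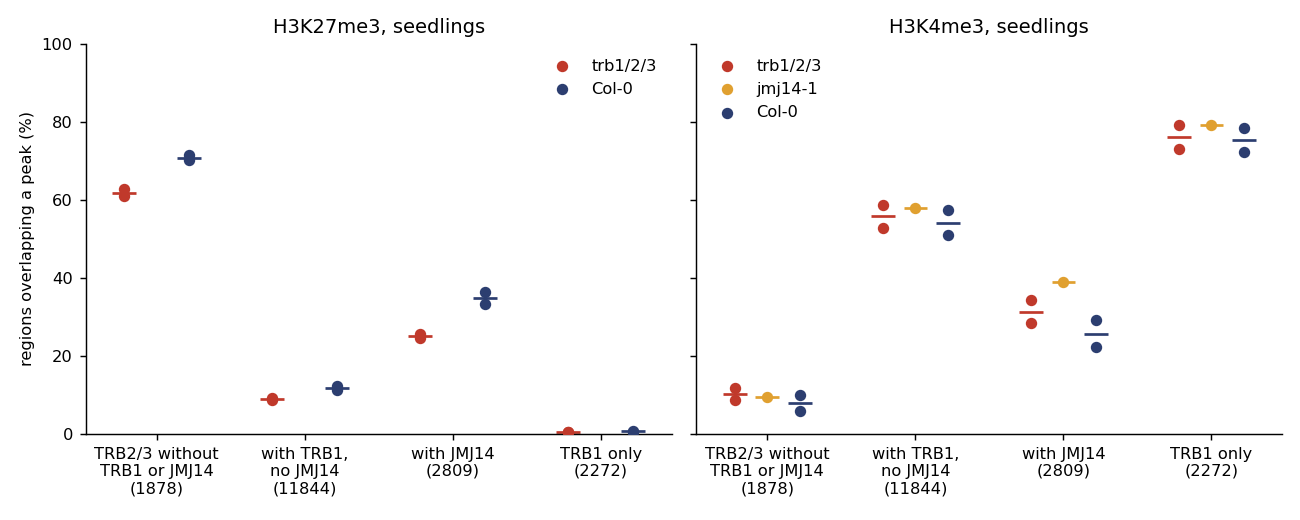
Share of regions (%, y axis) that touched an H3K27me3 peak (left) or an H3K4me3 peak (right) in seedling lists, for the 4 sets of regions on the x axis with the number of regions in brackets. Points are single lists and short lines are means, and the TRB2/3-only regions hold the highest H3K27me3 shares (60.9% to 71.6%) and the lowest H3K4me3 shares (5.75% to 11.9%).

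Taken region by region, 1165 of the 1878 (62.0%) lay under H3K27me3 in both Col-0 lists and under H3K4me3 in neither. The reverse held for 40 (2.13%), both marks in every list for 62 (3.30%), neither mark in any Col-0 list for 452 (24.1%), and the lists of a mark differed for 159 (8.47%). In the regions with TRB1 and no JMJ14 the same 4 shares were 7.38%, 47.7%, 2.29% and 33.2%. Over all 11 H3K27me3 lists, 864 TRB2/3-only regions were marked in every list and 374 in none. Over all 15 H3K4me3 lists, 56 were marked in every list and 1537 in none. A total of 325 regions carried neither mark in any list. The 3 widest regions of the whole group were at NAC067 (2587 bp, a NAC-domain gene), SAP (2146 bp, a regulator of ovule and flower development) and YAB3 (1959 bp, a YABBY gene of organ polarity). H3K27me3 covered NAC067 over its full 2587 bp in every trb1/2/3 and Col-0 list, and SAP over 2142 and 1921 bp in trb1/2/3 against 2146 bp in both Col-0 lists.

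The share under H3K27me3 increased with the number of TRB2 and TRB3 lists that held a region. It was 39.4% for the 132 regions held by 2 lists, 53.8% for 3 lists, 71.7% for 4, 81.6% for 5, 86.3% for 6, 89.7% for 7 and 99.2% (118 of 119) for all 8. Regions with TRB1 and no JMJ14 stood lower at each of these steps, between 2.29% at 2 lists and 27.3% at 8 lists. Better supported regions were also wider, with a median of 213 bp at 2 lists and 592 bp at 8 lists, and the part of width in this trend was not tested. Regions of TRB2 and TRB3 together had 83.8% and 85.0% under H3K27me3 in the 2 Col-0 lists, regions of TRB3 alone 78.2% and 77.6%, and regions of TRB2 alone 52.2% and 54.4%. H3K4me3 stayed between 3.85% and 9.35% at every level of support.

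The same opposition was seen when the union regions without a JMJ14 peak were ordered by how many TRB1 lists touched them. H3K27me3 in both Col-0 lists was found on 68.7% of the TRB2/3-only regions, on 35.3% of the 617 regions touched by 1 TRB1 list, and on 14.9%, 9.67% and 5.59% of those touched by 2, 3 and 4. H3K4me3 ran the other way, at 5.59%, 9.40%, 25.6%, 41.9% and 71.6%. The 117 regions touched by JMJ14 and by no TRB1 list had 77.8% under H3K27me3 and 3.42% under H3K4me3.

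**Figure D2:**
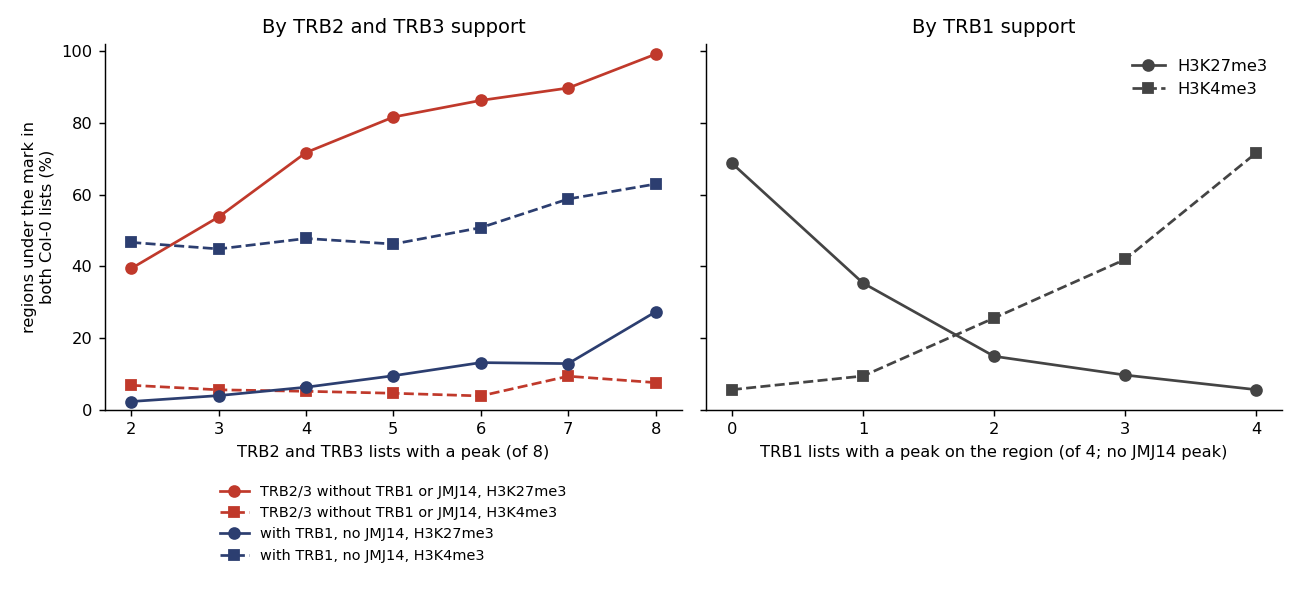
Share of regions under a mark in both Col-0 seedling lists (%, y axis) against the number of TRB2 and TRB3 lists with a peak (left, 2 to 8) and against the number of TRB1 lists with a peak for regions without JMJ14 (right, 0 to 4). H3K27me3 on TRB2/3-only regions runs between 39.4% and 99.2% on the left, and the 2 marks cross between 1 and 2 TRB1 lists on the right.

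The rule has an edge at a single base of overlap, so the regions on both sides of it are given here with no test. The nearest TRB1 or JMJ14 peak lay at a median distance of 1631.5 bp from a TRB2/3-only region, with 311 within 500 bp and 281 farther than 5000 bp. Just inside the rule, 14 regions had such a peak within 100 bp, the nearest at 22 bp, and 8 of the 14 lay under H3K27me3 and 1 under H3K4me3 in both Col-0 lists. Just outside it, 5 union regions were overlapped by TRB1 or JMJ14 over at most 50 bp, and 1 of them lay under each mark. Regions farther than 5000 bp from both proteins had 71.2% under H3K27me3 and 6.05% under H3K4me3.

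Around the TRB2/3-only regions, H3K27me3 formed broad domains. On average over the Col-0 lists, 65.7% of the region centres lay under an H3K27me3 peak, and 62.1% and 61.1% did so 1000 bp to the side of lower and of higher coordinates, and 51.2% and 50.8% at 2000 bp. In trb1/2/3 the centre was at 55.5% and the points at 1000 bp at 51.3% and 51.7%. The H3K27me3 peaks that held a TRB2/3-only region were 981 of 10222 and 983 of 10198 in the Col-0 lists, with median widths of 3410 and 3811 bp, against 869 and 955 bp over all peaks of those lists. The peaks that held a region with TRB1 and no JMJ14 had median widths of 1928 and 2252.5 bp, and those that held a JMJ14 region 1800 and 1897 bp. A wide peak is more likely to hold any region. The FLAG peaks were narrow by comparison. On average 60% of centres lay under TRB2 and 43.9% under TRB3, and 500 bp away 8.71% to 8.95% and 8.13% to 8.37% did. TRB1, at 0 at the centres by the rule, was at 5.54% and 4.25% at 1000 bp, so TRB1 peaks occurred in the neighbourhood of some of these regions. For scale, the 4 FLAG-TRB1 lists covered 4655858, 4206155, 12187739 and 11350838 bp of the 119146348 bp of the chromosomes.

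**Figure D3:**
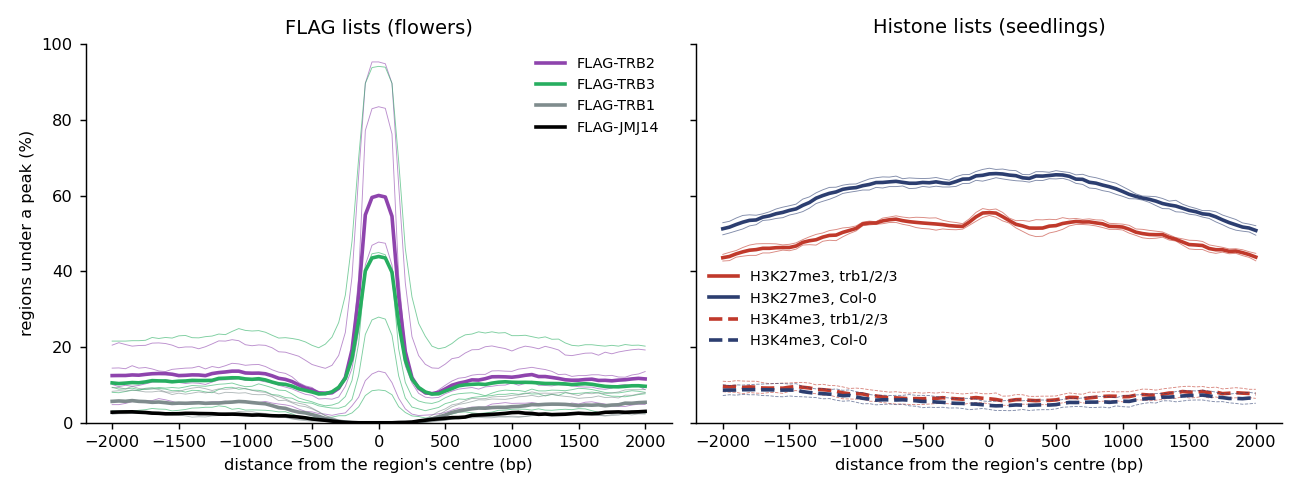
Share of the 1878 TRB2/3-only regions under a peak (%, y axis) by distance from the centre (x axis, bp, in steps of 50 bp, negative towards lower coordinates), for the FLAG lists of flowers (left) and the histone lists of seedlings (right). Thick lines are means over lists and thin lines single lists, and H3K27me3 in trb1/2/3 lies below Col-0 across the whole window (55.5% and 65.7% at the centre).

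TRB2/3-only regions lay farther from genes than the other sets. Their centres were in a promoter (up to 1000 bp before a TSS) in 31.1% of cases, in a 5' UTR in 8.68%, in another exon in 17.4%, in an intron in 6.39%, in a 3' UTR in 3.14%, within 300 bp downstream in 4.74% and in none of these, called distal, in 28.5%. Of the regions with TRB1 and no JMJ14, 47.7% were in promoters, 23.6% in 5' UTRs and 11.7% distal. Distal regions were 1.89% of the JMJ14 set and 1.01% of the TRB1-only set. The median distance to the nearest TSS was 794 bp for TRB2/3-only regions, 180.5 bp with TRB1, 402 bp with JMJ14 and 132 bp for TRB1-only regions. TRB2/3-only regions under H3K27me3 in both Col-0 lists were distal in 23.6% and those under it in none in 40.7%. The regions with TRB1 and no JMJ14 under H3K27me3 in both lists were distal in 18.2% and in promoters in 41.4%. Their median distance to the nearest TSS was 396 bp, against 683 bp for TRB2/3-only regions under the mark.

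TTAGGG lay in the 200 bp around the centre of 34.6% of the TRB2/3-only regions, against 25.4% of the regions with TRB1, 35.2% of those with JMJ14, 7.97% of the TRB1-only regions and 6.80% of all 200-bp tiles of the genome. Both strands were searched in every case. The telobox AAACCCTA, which shares 5 bases with the unit on its other strand and contains all of it when a further A follows, was in 22.4%, 17.6%, 25.7%, 3.57% and 2.62% of the same windows. Taking whole regions, 1071 of the 1878 held no TTAGGG, 625 held 1, 143 held 2 and 39 held 3 or more. By whole regions the share with at least 1, 43.0%, stood close to the 41.7% of all union regions, and JMJ14 regions, which are wider, stood at 58.2%. The unit was centred on the regions. It was found in 13.1% and 14.3% of the 60-bp windows on the 2 sides of the centre, and in 1.38% to 2.98% of such windows more than 500 bp away. Regions under H3K27me3 in both Col-0 lists held it in 39.3% of windows and those under it in no Col-0 list in 24.0%. The regions with TRB1 that lay under H3K27me3 in both Col-0 lists held it in 28.8% of windows. By whole regions these 2 marked sets stood at 50.2% and 50.8%. By support the unit ran between 26.9% (3 lists) and 49.5% (7 lists) of the windows of TRB2/3-only regions.

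Other short motifs were counted in the same windows. TGGGCC, the site II element of ribosomal and other growth genes, was in 6.50% of the TRB2/3-only windows, against 21.6% with TRB1, 10.6% with JMJ14, 11.2% of the TRB1-only regions and 3.05% of all tiles. It was in 15.8% of those TRB1 regions that lay under H3K27me3. The motif bound by the JMJ14 partners NAC050 and NAC052, searched as CTTGNNNNNCAAG, was in 0.373% of the TRB2/3-only windows, against 0.270% with TRB1, 10.4% with JMJ14 and 0.673% of tiles. CATGCA, the RY element, was in 11.2%, against 6.11% with TRB1 and 8.05% of tiles, but in 11.8% of those TRB1 regions that lay under H3K27me3. GAGAGA was in 25.1%, against 30.4% with TRB1 and 17.1% of tiles. These matches are letters in the window and were not tested as binding sites.

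**Figure D4:**
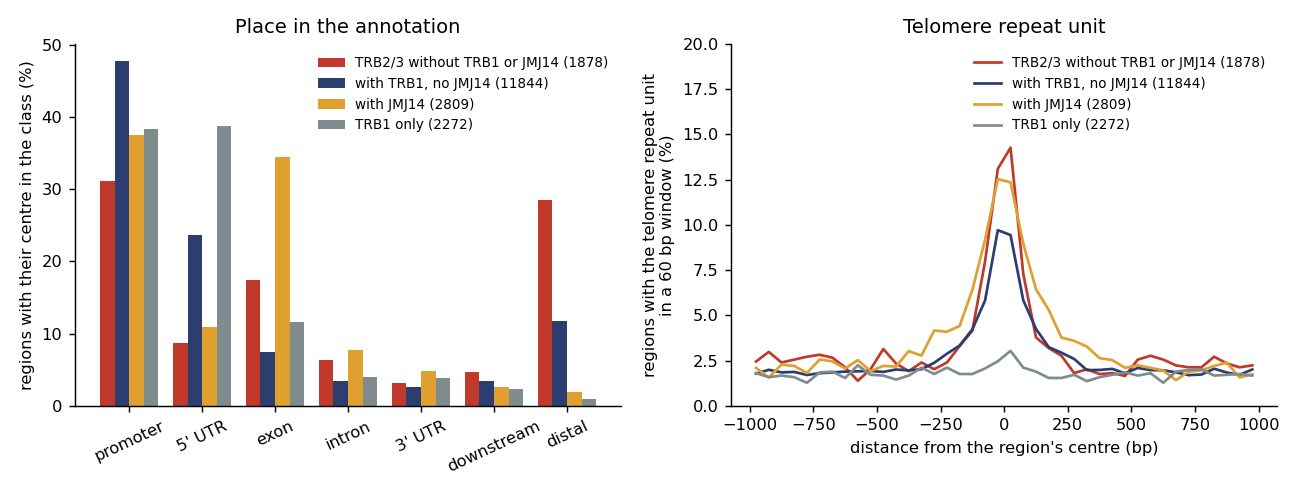
Left, share of region centres (%, y axis) in each annotation class for the 4 sets of regions. Right, share of regions (%, y axis) with the 6-base telomere repeat unit on either strand in a 60-bp window, by distance from the centre (x axis, bp), where the TRB2/3-only regions reach 14.3% beside the centre and 1.38% to 2.98% beyond 500 bp.

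The 1878 regions touched the body or the first 1000 bp upstream of 1419 genes, and 527 regions touched none. Transcription factors, taken from words in the annotation, made up 197 of the 1419 (13.9%), against 6.01% of the 16752 genes of all union regions and 4.25% of all genes. The largest families in name were homeobox (24 genes, 1.69% against 0.376% of union genes), bHLH (19, 1.34% against 0.478%), MYB (19, 1.34% against 0.47%), MADS-box (17, 1.20% against 0.442%), WRKY (15, 1.06% against 0.227%) and NAC (11, 0.775% against 0.304%). F-box genes, many of which encode substrate receptors of ubiquitin ligases, were 62 (4.37%, against 2.1%). Cytosolic ribosomal proteins were 3 (0.211%, against 1.65%), snoRNA genes 3 (0.211%, against 1.55%), tRNA genes 7 (of the 1419, against 1.76%) and pentatricopeptide repeat proteins 2 (0.141%, against 0.782%). Receptor or protein kinases were 17 (1.20%, against 2.75%). The groups follow annotation words and miss genes that are annotated in other words. The families were picked after their counts were seen.

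Of the 1419 genes, 25 held 3 or more TRB2/3-only regions, and the annotation words for transcription factors matched 13 of the 25. Of the genes of the other union regions, 400 held 3 or more of those, and the same words matched 37 of the 400. The words missed some transcription factor genes among the 25, such as ATS, AS2, TCP12, TCP17, IDD5 and VND1. How many they missed elsewhere was not counted. Among the 25 were the class I KNOX homeobox genes STM and KNAT6, which maintain the shoot meristem, AS2, a LOB-domain gene of leaf polarity, the YABBY gene YAB3, SUP, a zinc finger gene of floral organ boundaries, the TCP genes TCP5, TCP12 and TCP17, and ATS, a KANADI-type gene of ovule development, which held 4. The 25 also included genes of other kinds, such as CYP79B3, a cytochrome P450 of glucosinolate synthesis, ORP2A, an oxysterol-binding protein gene, and genes of a MATE efflux protein (AT3G21690) and a protein kinase (AT5G51800). Regions also came in runs. Of the 1878, 991 (52.8%) had another within 5000 bp, and there were 139 runs of 3 or more joined at that distance. The longest run was 9 regions over 16833 bp at chr2:18627886-18644718, around AFO, a YABBY gene of the abaxial side, and GOS12, and 8 of the 9 lay under H3K27me3 in both Col-0 lists. The next, 8 regions around LBD42 and BBX14 at chr1:25698768-25712264, had 4 under H3K27me3 and 2 under H3K4me3. Runs of 7 regions lay at AS2 (7 under H3K27me3), ATS (7), TCP5 (6) and JAG (5), the last a zinc finger gene of organ shape. Of the runs of 6, the one at AT1G26920 had 1 under H3K27me3 and the one at AT1G09273 had 2. These genes and runs were chosen after their counts were seen.

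MicroRNA precursors were 26 of the 1419 genes (1.83%, against 0.698% of union genes). By nearest TSS, 34 of the 326 annotated microRNA genes had a TRB2/3-only region, through 45 regions, and 62 had another union region. Of the 45, 34 (75.6%) lay under H3K27me3 in both Col-0 lists, near the 68.7% over all TRB2/3-only regions. The microRNA genes with such a region, marked or not, included MIR165a, MIR165b, MIR166a, MIR166b and MIR166e, whose products act on HD-ZIP III polarity genes. Also among them were MIR156a, MIR156c, MIR156e, MIR157a, MIR157b and MIR157d, which act on SPL genes of phase change, and MIR172a and MIR172c, which act on AP2-type genes. The regions of MIR166a, MIR166b and MIR156c did not lie under H3K27me3 in both Col-0 lists. Some lay far from the gene, with centres at -4489 bp from the TSS for MIR166a and -2121 bp for MIR156c. MIR160a alone was nearest to 4 regions. The region at MIR156a was held by all 8 lists and lay under both marks in both Col-0 lists. This group was also singled out after its values were seen.

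In trb1/2/3, H3K27me3 was called on fewer TRB2/3-only regions than in Col-0. It touched 62.8% and 60.9% of them in trb1/2/3 and 70.1% and 71.6% in Col-0, a difference of -8.97 percentage points between the means of 61.9% ± 1.36 and 70.8% ± 1.02 (SD, n = 2 each). Both mutant lists were below both Col-0 lists. With histone peaks of −log10 q of at least 10 the difference was -13.7 points. With 2 lists against 2 an exact permutation test cannot pass 0.05, so none was made. The drop was not particular to these regions. It was -9.83 points in the JMJ14 regions and -2.74 points in the regions with TRB1, and the chromosomes as a whole were covered over 12% and 11.3% by H3K27me3 peaks in trb1/2/3 and over 13.3% and 14.5% in Col-0. Since the files hold no depth, how far list length sets these shares was not tested.

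A region was called lost where H3K27me3 was in both Col-0 lists and in no trb1/2/3 list. By that rule 141 TRB2/3-only regions (7.51%) lost the mark, against 3.93% of all union regions, and 24 (1.28%) gained it, against 0.696%. Set against the regions with the mark in no Col-0 list, the gains were 24 of 508 (4.72%), and 91 of 12064 (0.754%) in the other union regions. Set against the regions that carried the mark in both Col-0 lists, the losses were 141 of 1291 (10.9%) and 509 of 2157 (23.6%) in the other union regions. Much of that gap went with how far the mark covered a region. Regions covered in full in both Col-0 lists numbered 1035 of the 1291 and lost it in 6.47%, against 9.21% of 793 in the other union regions. Regions covered in part lost it in 28.9% of 256 and 32.0% of 1364. The count of gains was 37 without Col-0 replicate 2 and 40 without trb1/2/3 replicate 2, and the count of losses ran between 158 and 196 without any 1 of the 4 lists, since each list left out makes the rule easier to meet.

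The losses were more frequent in promoters and distal places than in exons and 5' UTRs, as they were in the other union regions. Of the H3K27me3-marked TRB2/3-only regions, 63 of 394 in promoters (16.0%) and 39 of 305 distal ones (12.8%) lost the mark, against 18 of 283 in exons (6.36%) and 4 of 132 in 5' UTRs (3.03%). In the other union regions the same 4 shares were 26.7%, 27.2%, 18.1% and 18.8%. Regions with TTAGGG lost it in 71 of 648 cases (11.0%) and regions without in 70 of 643 (10.9%), against 24.8% and 22.0% in the other union regions. By support the loss was 14.9% at 2 or 3 lists, 9.41% at 4 or 5 and 8.63% at 6 to 8, against 24.2%, 28.8% and 22.0%. Of the 127 genes touched by lost regions, 7 (5.51%) matched the annotation words for transcription factors, against 13.9% of the genes of all TRB2/3-only regions. Among the genes of those under H3K27me3 in both Col-0 lists, 162 of 1037 (15.6%) matched the same words. Those words miss some transcription factor genes. The largest losses in covered bases were at a region centred at -1076 bp from the TSS of CYP87A2, a cytochrome P450 gene, and at UBC26, a ubiquitin-conjugating enzyme gene, LRL2, a bHLH gene of root hairs, and AT5G38230. The CYP87A2 region had 0 and 0 bp of H3K27me3 in trb1/2/3 and 488 and 561 bp in Col-0. UBC26 had 0 and 0 bp in trb1/2/3 and 499 and 499 bp in Col-0. LRL2 had 0 and 0 bp in trb1/2/3 and 585 and 397 bp in Col-0. The adult fwa lists carried the mark on all 3. Of the 141 lost regions, 71 (50.4%) lay under it in both fwa lists, against 1084 of the 1291 (84%) marked in both Col-0 lists.

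The 4 largest gains of H3K27me3 were each over the whole width of the region. The promoter region of TCP15, a TCP gene, had 272 and 272 bp of H3K27me3 in trb1/2/3 and 0 and 0 bp in Col-0. A distal region centred at -1055 bp from the TSS of BEL1, a homeobox gene of ovule integuments, had 271 and 271 bp in trb1/2/3 and 0 and 0 bp in Col-0. The other large gains were a distal region near the non-coding AT3G08585 (552 and 552 bp in trb1/2/3, 0 and 0 bp in Col-0) and the promoter region of AT3G25715 and AT3G25716. Neither the TCP15 nor the BEL1 region carried H3K27me3 in the fwa lists, while both TRB3-ZF lists did at TCP15 (272 and 170 bp).

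H3K4me3 touched 11.9% and 8.57% of the TRB2/3-only regions in trb1/2/3 and 9.96% and 5.75% in Col-0. The means of 10.2% ± 2.33 and 7.85% ± 2.97 (SD, n = 2 each) differed by 2.37 points, which is less than the SD of the Col-0 lists, and the groups overlapped. Set against the Col-0 list of the same replicate number, both trb1/2/3 lists were higher, as they were in the regions with TRB1 and in the JMJ14 regions. Without Col-0 replicate 2 the difference of the means was 0.266, and without Col-0 replicate 1 it was 4.47. The regions with TRB1 differed by 1.62 points and those with JMJ14 by 5.62. The single jmj14-1 list touched 9.37% of the TRB2/3-only regions, 1.52 points above the Col-0 mean and between the 2 Col-0 lists. Against Col-0 replicate 1 alone, the list of the same number, the difference was -0.586. In the JMJ14 regions the jmj14-1 list stood 13.3 points above the Col-0 mean, at 39.0% against 29.2% in Col-0 replicate 1. Called by the single jmj14-1 list against both Col-0 lists, 11 TRB2/3-only regions (0.586%) gained H3K4me3, against 2.85% of all union regions. In the same call 3 (0.160%) lost it, against 0.109%. Set against the regions that could change, these were 11 of 1688 (0.652%) and 3 of 105 (2.86%). In the other union regions these shares were 6.58% and 0.227%.

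Region by region, 34 TRB2/3-only regions (1.81%) gained H3K4me3 in trb1/2/3, against 1.32% of all union regions. They were under it in both mutant lists and in neither Col-0 list. Set against the regions under it in neither Col-0 list, the gains were 34 of 1688 (2.01%), and 185 of 6994 (2.65%) in the other union regions. The count in TRB2/3-only regions was 66 without Col-0 replicate 1 and 64 without trb1/2/3 replicate 2. Of the 34, 15 lay in exons and 9 in 5' UTRs, and 32 lay under H3K27me3 in both Col-0 lists. Among regions without H3K4me3 in Col-0, the gain was 5.70% in exons and 8.18% in 5' UTRs, against 4.77% and 9.32% in the other union regions. It was 2.75% on those under H3K27me3 in both Col-0 lists and 0.221% on those under it in none, against 5.35% and 1.81% in the other union regions. Of the 36 genes touched, 8 (22.2%) matched the annotation words for transcription factors, against 13.9% of the genes of all TRB2/3-only regions. The share was 15.6% among the genes of TRB2/3-only regions under H3K27me3 in both Col-0 lists. H3K27me3 was still called on 28 of the 34 in both trb1/2/3 lists, and 2 of the 34 lost it. The gain was thus recorded mostly on regions that kept an H3K27me3 call, in lists that pool the cells of whole seedlings. The jmj14-1 list had H3K4me3 on 1 of the 34.

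The largest gain was at BRC1, a TCP gene that holds back the outgrowth of axillary buds. Its region of 1124 bp, at chr3:6383151-6384274, had 730 and 611 bp of H3K4me3 in trb1/2/3, 0 bp in jmj14-1 and 0 and 0 bp in Col-0. H3K27me3 covered all 1124 bp in both trb1/2/3 and both Col-0 lists, and no TRB-ZF or fwa list had H3K4me3 there. ZFP10, a C2H2 zinc finger gene, had 350 and 389 bp of H3K4me3 in trb1/2/3 and 0 and 0 bp in Col-0. VIM5, of a family of RING proteins that bind methylated DNA, had 426 and 306 bp in trb1/2/3 and 0 and 0 bp in Col-0. H3K27me3 covered at least 532 of the 569 bp of the VIM5 region in all 4 seedling lists. The distal region near AT3G43310 was 1 of the 2 that exchanged the marks, with 391 and 460 bp of H3K4me3 in trb1/2/3 and none in Col-0, and 239 and 237 bp of H3K27me3 in Col-0 and none in trb1/2/3.

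**Figure D5:**
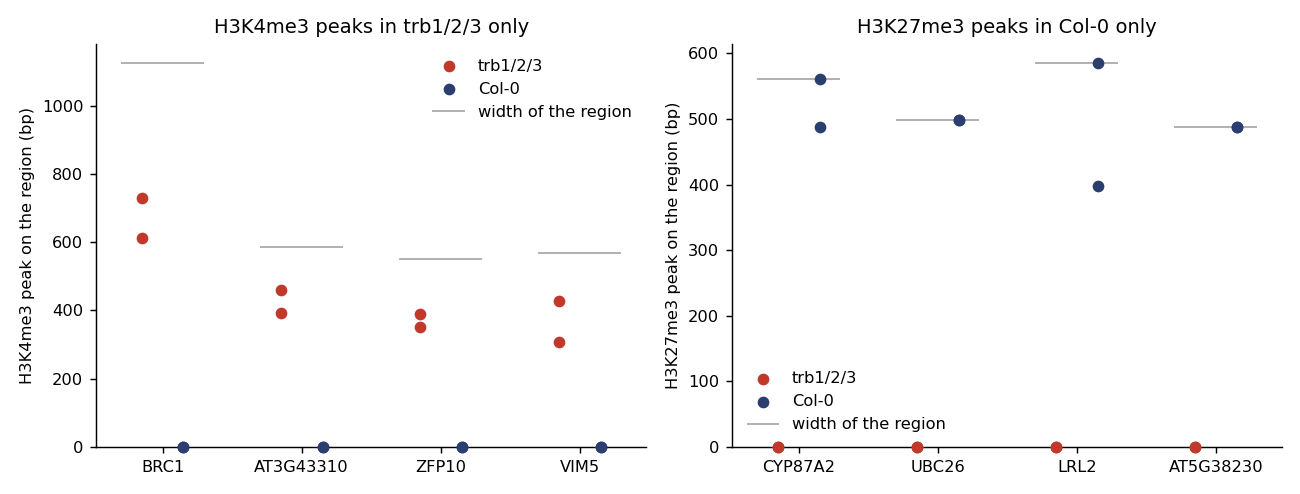
Bases of the region under a peak (bp, y axis) in single seedling lists of trb1/2/3 and Col-0, for the 4 TRB2/3-only regions with the largest gain of H3K4me3 (left) and the 4 with the largest loss of H3K27me3 (right). Points are lists, grey lines mark the width of the region, and BRC1 has 730 and 611 bp of H3K4me3 in trb1/2/3 and 0 bp in both Col-0 lists.

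Losses of H3K4me3 were few, at 6 regions (0.319%, against 0.157% of all union regions). Of the regions that carried it in both Col-0 lists, 6 of 105 (5.71%) lost it, against 20 of 6611 (0.303%) in the other union regions. The count in TRB2/3-only regions was 29 without Col-0 replicate 2 and 16 without trb1/2/3 replicate 1. The largest was at AGL24, a MADS-box gene that promotes flowering, where a region of 978 bp had 0 and 0 bp of H3K4me3 in trb1/2/3, 555 bp in jmj14-1 and 509 and 488 bp in Col-0. H3K27me3 covered all 978 bp there in both trb1/2/3 and both Col-0 lists. PLAT2, of a lipase-like family, had 0 and 0 bp in trb1/2/3 and 325 and 192 bp in Col-0, and AT1G12100 had 0 and 0 bp in trb1/2/3 and 166 and 199 bp in Col-0. By centre base in place of any overlap, 1 loss was left of the 6.

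The 62 regions under both marks in both Col-0 lists were led by YAB3, LOV1 and AT4G13495. YAB3 had 1199 and 889 bp of H3K4me3 in trb1/2/3, 1403 bp in jmj14-1 and 1203 and 431 bp in Col-0, under H3K27me3 over its full 1959 bp in all 4 lists of trb1/2/3 and Col-0. LOV1, a NAC-domain gene, had 856 and 622 bp of H3K4me3 in trb1/2/3 and 1130 and 659 bp in Col-0. At both genes the lists of the 2 genotypes overlapped. At AT4G13495, a non-coding gene that holds the MIR5026 precursor, H3K27me3 covered 716 and 281 bp in trb1/2/3 and 1034 and 1034 bp in Col-0, with both mutant lists lower, while H3K4me3 covered 952 and 882 bp in trb1/2/3 and 802 and 869 bp in Col-0.

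The TRB-ZF fusions carry each TRB to the FWA promoter and, per the paper, to many off-target sites that ZF108 binds. Which TRB2/3-only regions lie at such sites was not checked. The comparison with fwa asks whether the marks differed on the TRB2/3-only regions. On the TRB2/3-only regions, H3K4me3 touched 8.31% ± 1.5 in TRB1-ZF (n = 3), 7.64% ± 0.715 in TRB2-ZF (n = 2) and 7.61% ± 1.20 in TRB3-ZF (n = 2), and 9.09% ± 1.03 in fwa (SD, n = 3). Over the 7 TRB-ZF lists the difference was -1.17 points, and the lists overlapped, at 6.76% to 9.96% in TRB-ZF and 8.20% to 10.2% in fwa. Set against the fwa list of the same replicate number, all 7 TRB-ZF lists were lower, as were 7 of 7 in the regions with TRB1 and 2 of 7 in the JMJ14 regions. H3K27me3 touched 62.8% ± 1.36 over the 5 distinct TRB-ZF lists and 64.9% ± 2.11 over the 2 fwa lists (SD), a difference of -2.07 points, at 61.1% to 64.7% in TRB-ZF and 63.4% and 66.4% in fwa, which also overlapped. By replicate number, 4 of the 5 were lower than fwa. The H3K4me3 difference was about as large as the SD of the fwa lists (1.03), and the H3K27me3 difference was smaller than theirs (2.11). The H3K27me3 difference was -0.575 without fwa replicate 2 and -3.56 without fwa replicate 1.

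An exact permutation test (two-sided) of the covered fraction was made for each union region with any coverage in these lists. For H3K4me3, 7 TRB-ZF lists against 3 fwa lists allow 120 arrangements and a smallest p of 0.00833. Of 270 TRB2/3-only regions tested, 6 had an unadjusted p under 0.05 (2.22%, against 2.62% of 8514 union regions), 1 higher in TRB-ZF (against 0.2%) and 5 lower (against 2.42%). For H3K27me3, 5 lists against 2 allow 21 arrangements and a smallest p of 0.0476. Of 1443 regions tested, 38 had an unadjusted p under 0.05 (2.63%, against 4.84% of 4280), 7 higher (against 0.748%) and 31 lower (against 4.09%). After Benjamini-Hochberg adjustment over all union regions tested no region passed, with smallest adjusted exact permutation p-values of 1 for H3K4me3 and 0.985 for H3K27me3. Permuted within replicate numbers, 3 of the 270 regions (1.11%, against 3.05% of the 8514) passed the unadjusted threshold for H3K4me3. For H3K27me3 the blocked permutation design has a smallest p of 0.0833 and cannot pass.

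By the stricter call, present in every list of one side and absent from every list of the other, H3K4me3 was gained on 0 and lost on 0 TRB2/3-only regions in TRB-ZF, against 0.00605% and 0.0181% of union regions. H3K27me3 was gained on 3 (0.160%, against 0.0665%) and lost on 8 (0.426%, against 0.272%). Set against the regions that could change, the gains were 3 of 540 (0.556%) and the losses 8 of 1100 (0.727%). In the other union regions these shares were 0.0653% and 2.31%. The 3 gains were at IAA2, an auxin-response repressor gene, WRKY27 and AT2G05035. IAA2, with a region of 308 bp in its promoter, had 158 and 308 bp in TRB1-ZF, 15 bp in TRB2-ZF replicate 1, 308 and 308 bp in TRB3-ZF, and 0 and 0 bp in fwa. Replicate 2 of TRB1-ZF is the list identical to TRB2-ZF replicate 2, so its value cannot be given to either fusion alone. WRKY27 had 174, 163, 148, 174 and 174 bp in the 5 TRB-ZF lists and 0 and 0 bp in fwa, while both trb1/2/3 lists (174 and 174 bp) and both Col-0 lists (110 and 174 bp) of seedlings carried the mark there. Among the losses, ARV1 had 0 bp in all 5 TRB-ZF lists and 225 and 225 bp in fwa, and a distal region near CLE5, a signalling peptide gene, had 0 bp in all 5 and 133 and 313 bp in fwa.

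Myc-JMJ14, whose lists the rule did not use, met few of these regions. For some of these lists the deposited name gives another background than the label. The backgrounds given here follow the labels. The single list without a fusion (296 peaks) touched 1 of the 1878 and 5 of the 2809 JMJ14 regions, so it says little of either. The 2 lists in TRB1-ZF plants touched 0.106% (2 regions) and 0.266% (5), against 2.67% and 9.72% of the JMJ14 regions. The list in TRB2-ZF plants touched 0.106% (2), against 1.71%, and the list in TRB3-ZF plants 0.426% (8), against 17.2%. The JMJ14 regions were chosen by FLAG-JMJ14 peaks and the TRB2/3-only regions by their absence, so these sets differed from the start. In the regions with TRB1 and no JMJ14, the shares were 0.836% and 1.40% in TRB1-ZF, 0.675% in TRB2-ZF and 0.760% in TRB3-ZF. Without a fusion the share there was 0.262%. ELP, an extensin-like cell wall gene, and GAE1, an enzyme gene of pectin precursors, were each touched by 2 of the 5 lists, TRB1-ZF replicate 2 and TRB3-ZF. Both carried H3K4me3 in every seedling list, GAE1 without H3K27me3 in any list and ELP with it over all 376 bp in both trb1/2/3 and both Col-0 lists.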

How the data were processed

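ChIP-seq peak lists were used. Per the labels and the methods, the authors trimmed reads with Trim Galore, aligned them with Bowtie2 (version 2.1.0 in the submitters' processing notes) to TAIR10, removed duplicates with SAMtools (1.9) and called peaks with MACS2 (2.1.1). They also removed sites with peaks in several wild type ChIP replicates. The control used for each call is not given in the sources used here. The deposited lists give a fold (a linear ratio of signal to background), a −log10 of the q-value, a −log10 of the p-value and an integer score for each peak, all made by the authors. The depth is unknown.

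Overlaps of at least 1 bp, coverage and motifs were computed in numpy 2.4.6 and scipy 1.17.1 under Python 3.11.15, and the scripts were tested on simulated data. All FLAG lists count equally in the rule. Annotation and sequence came from the NCBI RefSeq assembly of TAIR10, whose chromosome lengths no peak exceeds. Shares are means ± SD over lists, and an exact permutation test was made where the design allowed one. Samples were grouped by the labels alone.

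The regions and the gene lists were chosen with earlier results of these data known. Named regions follow fixed ranks, namely the 10 best supported, the 4 largest changes for each mark and direction in trb1/2/3, the 3 largest in TRB-ZF, the 3 widest, the 3 with the most bases under the 2 marks in Col-0 among regions with both, and the 3 in the most Myc-JMJ14 lists. TRB-ZF and fwa lists with the same replicate number deviated together. Their correlations were 0.495 to 0.698 over 13 pairs for H3K4me3 and 0.425 to 0.473 over 6 pairs for H3K27me3. For H3K4me3, replicates 1 and 3 of different genotypes also deviated together, at 0.191 to 0.439. Where both genotypes have 2 lists, the value for different numbers is the same with its sign changed. The numbers were used as blocks, and whether they pair these lists was not tested. The alternatives were a −log10 q of at least 10, the region's centre, stricter and looser consensus and exclusion, a promoter of 2000 bp, replicate blocks and each list left out.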

Additional observations from a re-analysis of the deposited data

How the results depend on the processing

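The number of TRB2/3-only regions was 1878. It was 1209 with FLAG peaks of −log10 q of at least 10, 892 with peaks in at least 3 of the 4 lists, 1177 with only the 3279 strongest peaks of each FLAG list kept, the length of the shortest list, and 1297 to 2282 with each FLAG list left out, lowest without TRB2 replicate 4 and highest without TRB1 replicate 3. The −log10 q threshold was applied to the TRB1 and JMJ14 lists too, so the 1209 regions need not all be among the 1878. Exclusion by TRB1 or JMJ14 consensus regions alone gave 2563, exclusion within 500 bp 1567 and joining at 0 bp 1903. In Col-0, H3K27me3 was on 70.8% of the regions, 65.7% by the region's centre, 65.5% with histone peaks of −log10 q of at least 10, 67.5% with FLAG peaks of that threshold, 72.6% without any TRB1 or JMJ14 peak within 500 bp, and 70.1% to 71.6% with a list left out. H3K4me3 was on 7.85%, 4.58% by centre, 13.9% with the stricter FLAG peaks and 5.75% to 9.96% with a list left out. The trb1/2/3 difference in H3K27me3 of -8.97 points was -10.2 by centre, -13.7 with the stricter histone peaks and -9.93 to -8.01 with a list left out. That in H3K4me3 was 0.266 to 4.47 with a list left out. The jmj14-1 difference of 1.52 points turned to -0.586 without Col-0 replicate 2 and was 3.62 without Col-0 replicate 1. The TRB-ZF differences with a list left out were -1.61 to -0.601 for H3K4me3 and -3.56 to -0.575 for H3K27me3, and H3K27me3 stood at -4.48 with the stricter histone peaks. With the replicate block the share differences were 2.37 and -8.97 in trb1/2/3 and -0.716 and -2.02 in TRB-ZF for H3K4me3 and H3K27me3, and no share difference changed its direction under it. Seedling lists of the same number had correlations of 0.454 for H3K4me3 and -0.0439 for H3K27me3 over 2 pairs each. The first lies between the 0.425 and 0.473 of the TRB-ZF pairs for H3K27me3. Whether the number pairs the seedling H3K4me3 lists was not tested. Regions with an unadjusted exact permutation p under 0.05 numbered 6 for H3K4me3, 3 with the replicate block and 1 to 9 with a list left out, and 38 for H3K27me3, 0 with the replicate block and 0 with any list left out, where the smallest p was 0.0667 to 0.167 and the test is void. In the regions, TTAGGG was found in 43.0%, in 34.6% of the 200-bp windows and in 53.6% with the stricter FLAG peaks. A promoter of 2000 bp put 61.1% in a promoter or 5' UTR, against 39.8%. The cause of these shifts was not tested.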

Other observations

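The TRB2/3-only regions were found on all 5 chromosomes, with 523, 334, 355, 304 and 362 on chromosomes 1 to 5, a density between 13.4 and 17.2 per Mb. Non-coding genes other than microRNAs, tRNAs, snRNAs and snoRNAs made up 195 of their 1419 genes (13.7%, against 8.98% of the genes of all union regions), and transposable element genes and pseudogenes 52 (3.66%, against 2.3%, and 13% of all genes in the annotation).

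The TRB2/3-only regions without H3K27me3 in any Col-0 list, 508 in all, differed from the marked ones in several measures. They held TGGGCC in 11.8% of their 200-bp windows, against 4.42% of the marked regions, and the telobox in 10.4%, against 27.6%. Their median distance from the nearest TSS was 1092.5 bp, against 683 bp. Of the 374 regions under H3K27me3 in none of its 11 lists, 325 also lay under H3K4me3 in none of its 15 lists.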
